A study of Rattus norvegicus with 6 samples.

Results

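Read counts of 5 rat genes, the aryl hydrocarbon receptor gene Ahr and the cytochrome P450 genes Cyp1a1, Cyp1a2, Cyp2e1 and Cyp17a1, were followed through ischemia reperfusion (IR) of the liver. The genes were taken by Ensembl identifier (Ahr ENSRNOG00000004342, Cyp1a1 ENSRNOG00000019500, Cyp1a2 ENSRNOG00000016173, Cyp2e1 ENSRNOG00000012458, Cyp17a1 ENSRNOG00000020035) and not by a rule on their values, although earlier results of these data were known. All 5 were among the 26689 gene IDs counted. The names rest on this list of identifiers, because the reference table used here pairs 0 of the 5 identifiers with a symbol.

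The study compared healthy untreated rats (control), rats in which the portal vein was clamped for a time and then released (IR), and rats with the same injury plus drugs (treated IR). Treated animals received etanercept, a fusion protein that captures tumor necrosis factor, at 9 mg/kg from 18 to 16 h before IR, and nitroglycerin, a nitric oxide donor that widens vessels, as an intravenous infusion of 6 µg/kg/min that began before IR and ran through it. Whole liver and hepatocytes freshly isolated by collagenase perfusion came from different animals, and RNA was taken 1 day after IR. Each of the 6 groups is 1 library made from the pooled RNA of 3 animals. The series asks whether acting on vessel constriction or on inflammation improves the outcome of this injury. No sham operation is named for the controls, and the sources used here give no strain, sex or age. With 1 library a group, a difference between 2 libraries has no replicate check, and its interval covers counting error only.

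Cytochromes P450 are heme enzymes, most of them anchored in the endoplasmic reticulum, that oxidise drugs, toxins, fatty acids and steroids. The Ahr protein is a transcription factor that moves to the nucleus when it binds ligands such as dioxins, pairs with Arnt, and binds DNA at a response element with the core GCGTG. Cyp1a1 and Cyp1a2 are its best known target genes. Cyp1a2 is also expressed without an inducer in hepatocytes around the central vein, as is Cyp2e1, which oxidises ethanol and acetaminophen. Cyp17a1 carries the 17-alpha-hydroxylase and lyase steps of steroid hormone synthesis and is best known from the gonads and adrenals.

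The RefSeq promoter table, on build GRCr8, held 3 of the 5 genes. The 250 bases before each start are shown because they set the receptor gene beside 2 liver P450 genes, and capitals mark the TATA box letters TATAAA. Cyp1a2 lies on the minus strand (chr8:66978150-66978399), Cyp2e1 on the plus strand (chr1:205269717-205269966) and Ahr on the minus strand (chr6:57998902-57999151).
Cyp1a2: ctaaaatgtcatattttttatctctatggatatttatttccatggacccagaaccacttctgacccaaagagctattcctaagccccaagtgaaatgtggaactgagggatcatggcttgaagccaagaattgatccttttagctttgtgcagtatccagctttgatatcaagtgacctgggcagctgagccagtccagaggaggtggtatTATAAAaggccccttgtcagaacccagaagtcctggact
Cyp2e1: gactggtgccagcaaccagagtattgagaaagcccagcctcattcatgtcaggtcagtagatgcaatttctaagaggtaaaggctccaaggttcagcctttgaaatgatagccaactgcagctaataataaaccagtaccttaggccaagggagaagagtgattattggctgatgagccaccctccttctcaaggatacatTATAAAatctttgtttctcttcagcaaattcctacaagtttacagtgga
Ahr: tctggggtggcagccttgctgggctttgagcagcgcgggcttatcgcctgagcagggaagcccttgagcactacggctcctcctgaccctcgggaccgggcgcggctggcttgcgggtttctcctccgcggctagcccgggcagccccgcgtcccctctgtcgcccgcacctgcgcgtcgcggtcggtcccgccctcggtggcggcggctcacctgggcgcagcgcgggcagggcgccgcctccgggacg

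Cyp1a2 and Cyp2e1 each held 1 TATAAA, beginning 39 and 49 bases before the RefSeq start, and Ahr held 0. Searched on both strands, TATAAA occurred in 12.9% of 33469 promoter windows of this length. The Ahr window was GC-rich, at 75.2% G or C against 44.0% in Cyp1a2, 42.8% in Cyp2e1 and a median of 51.2% over all windows. The core GCGTG, also searched on both strands, had 0 matches in each of the 3 windows and occurred in 25.9% of all windows. The motifs do not overlap each other in letters, and a match or its lack describes only these windows. In the RefSeq gene table of the same build, Cyp1a1 and Cyp1a2 are neighbours on chromosome 8 with 0 genes between them. Cyp1a1 and Cyp17a1 had no entry in the promoter table.

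Reads counted in genes ran from 1945331 to 7160610 per library, and levels are given as CPM (reads scaled to library size) after edgeR's TMM scaling, not corrected for gene length. All 5 genes passed the filter on low counts, which kept 9932 genes, but Cyp1a1 did so only through the control libraries. At 3 reads, the most that a count of 0 allows, a gene would stand at 0.400 to 1.39 CPM. Of all alignments, 60.1% were not unique in liver IR, against 41.1% to 46.3% in the other libraries. Markers of hepatocytes and other liver cells were not analysed here, because no identifier was paired with a symbol. In bulk RNA, fewer cells of a type and less RNA per cell cannot be told apart.

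Ahr, the receptor, was level in whole liver and lowest in hepatocytes of treated animals. In whole liver Ahr was at 26.6 CPM in healthy rats, 30.7 after IR and 26.6 after treated IR, from 61, 207 and 199 reads. In hepatocytes its levels were 29.5, 24.4 and 12.1 CPM for the same conditions, from 95, 126 and 26 reads. The treated hepatocyte library lay below all 5 others, whose counting intervals overlap each other and not that of the treated hepatocytes. How many of all genes set this library apart in the same way was not counted. Ahr in the treated hepatocyte library was 2.44-fold lower than in control hepatocytes (95% counting interval 1.57 to 3.93) and 2.02-fold lower than in IR hepatocytes (1.32 to 3.21). In these 2 pairs, 8.32% and 23.3% of all genes kept differed at least 2-fold in either direction, with an interval that excludes 1. Scaled by library totals alone, the differences of Ahr were 2.88-fold and 2.47-fold. In whole liver the ratio of treated IR to IR was 0.866 (0.709 to 1.06, and 1.14 by library totals), and whether the preparations differ in it was not tested.

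A ratio of 2 genes within a library does not depend on scaling. It gave the same order for Ahr in hepatocytes and another order in liver, where the intervals overlap on both scales. For every 1000 Cyp2e1 reads, the control, IR and treated IR livers held 15.7, 14.7 and 16.6 Ahr reads. The matching hepatocyte values were 15.7, 11.1 and 5.35. The treated hepatocyte library (95% Clopper-Pearson interval 3.49 to 7.84) lay below every other interval, and how many of all genes do so was not counted. Across both preparations Ahr was not called in treated IR vs control (edgeR quasi-likelihood log2 ratio -0.58, SE 0.38, adjusted p = 1) or in treated IR vs IR (-0.52, SE 0.37, adjusted p = 0.981). Without liver treated IR these values were -1.22 (adjusted p = 0.608) and -1.18 (adjusted p = 0.293), and without hepatocyte treated IR -0.14 and -0.11 (adjusted p = 1 for each).

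**Figure D1:**
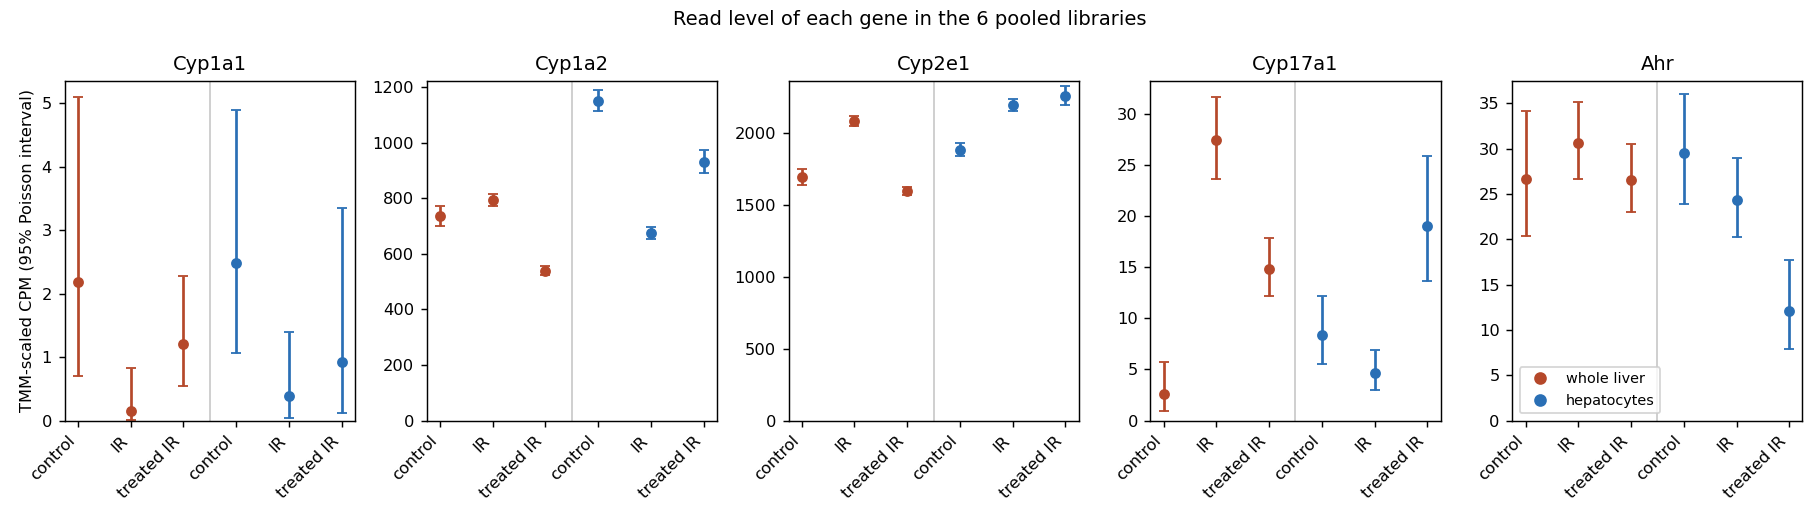
Level of each gene in the 6 pooled libraries, in TMM-scaled CPM on a linear axis from 0, with red points for whole liver and blue points for hepatocytes. Bars are 95% Poisson counting intervals; Cyp17a1 is highest in liver IR at 27.4 CPM, and Ahr is lowest in treated IR hepatocytes at 12.1 CPM.

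Cyp1a1, the classical inducible target of Ahr, was close to the detection limit in all 6 libraries, with 27 reads in all. Healthy liver gave 5 Cyp1a1 reads, liver after IR 1 read and liver after treated IR 9 reads, or 2.18, 0.148 and 1.20 CPM. The hepatocyte libraries gave 8, 2 and 2 reads for the same conditions, or 2.48, 0.387 and 0.929 CPM. Both control libraries lay above all 4 libraries with IR, as 4.85% of all genes did, a grouping chosen after the values were seen. Counting intervals overlapped, as in liver control (0.709 to 5.09 CPM) and treated IR liver (0.549 to 2.28). The filter asks for 2.28 unscaled CPM in 2 libraries, and Cyp1a1 reached it only in the 2 controls, at 2.57 in liver and 2.32 in hepatocytes. It was therefore kept because its controls were high. Its order of libraries and its ratios to control are a description, and no test result is read from them.

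Cyp1a1 in IR stood at a ratio of 0.0679 to control in whole liver (0.00144 to 0.607) and of 0.156 in hepatocytes (0.0161 to 0.780). The intervals span more than 10-fold each, since single reads decide them. In liver, 9 reads in treated IR against 1 in IR gave a ratio of 8.11 (1.12 to 355), and in hepatocytes 2 against 2 reads gave 2.40 (0.174 to 33.1).

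Cyp1a1 and Cyp1a2 are close relatives, and a read that matches both genes could be lost or split by the counting, which was not tested. Per 1000 Cyp1a2 reads, the control, IR and treated IR livers had 2.97, 0.187 and 2.23 Cyp1a1 reads. Hepatocytes had 2.16, 0.573 and 0.997 for these conditions. The IR library was the lowest of each preparation, with overlapping intervals in hepatocytes (0.931 to 4.26 in control, 0.0693 to 2.07 in IR) and in liver (0.963 to 6.95 and 0.00473 to 1.04).

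Cyp1a2, which metabolises caffeine and aromatic amines, was abundant and was highest in control hepatocytes. Healthy liver held Cyp1a2 at 735 CPM, liver after IR at 792 and liver after treated IR at 539, from 1683, 5348 and 4036 reads. Hepatocytes held it at 1150, 675 and 931 CPM for these conditions, from 3706, 3492 and 2006 reads. The counting intervals of the 3 libraries of each preparation were narrow and did not overlap, although control and IR in liver nearly touched (700 to 770 and 771 to 814 CPM). The largest difference within a preparation, 1.70-fold lower in IR than in control hepatocytes (1.63 to 1.78), stayed under the 2-fold rule.

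The direction of Cyp1a2 in liver IR vs control depended on scaling. The ratio was 1.08 (1.02 to 1.14) with TMM and 0.863 with library totals alone, which shifted the log2 ratio of every gene in that pair by -0.32. Cyp1a2 made up 0.0865% of all gene reads in healthy liver, 0.0747% after IR and 0.0666% after treated IR. In hepatocytes its shares were 0.107%, 0.0655% and 0.0738%. By that share both control libraries lay above all 4 libraries with IR, as 5.20% of all genes did, a grouping of libraries chosen after the values were seen. With TMM scaling this did not hold, because liver IR and treated IR hepatocytes both exceeded liver control.

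Set against Cyp2e1 in the same library, Cyp1a2 was highest in the controls, as by share of reads but not with TMM scaling. Per 1000 Cyp2e1 reads, healthy liver held 434 Cyp1a2 reads (410 to 460), liver after IR 381 (369 to 393) and liver after treated IR 337 (325 to 350). Control hepatocytes held 611 (586 to 636), IR hepatocytes 308 (297 to 320) and treated IR hepatocytes 412 (391 to 435). Both controls lay above all 4 libraries with IR, although the interval of treated hepatocytes overlapped that of liver control. This grouping, too, was chosen after the values were seen, and how many of all genes sort this way against Cyp2e1 was not counted. The grouping is not separate from the grouping by share, since the share of Cyp2e1 varied little, from 0.176% to 0.212%. Across both preparations the log2 ratio of Cyp1a2 in IR vs control was -0.30 (SE 0.47, edgeR adjusted p = 0.996), and in treated IR vs control -0.37 (SE 0.47, adjusted p = 1).

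**Figure D2:**
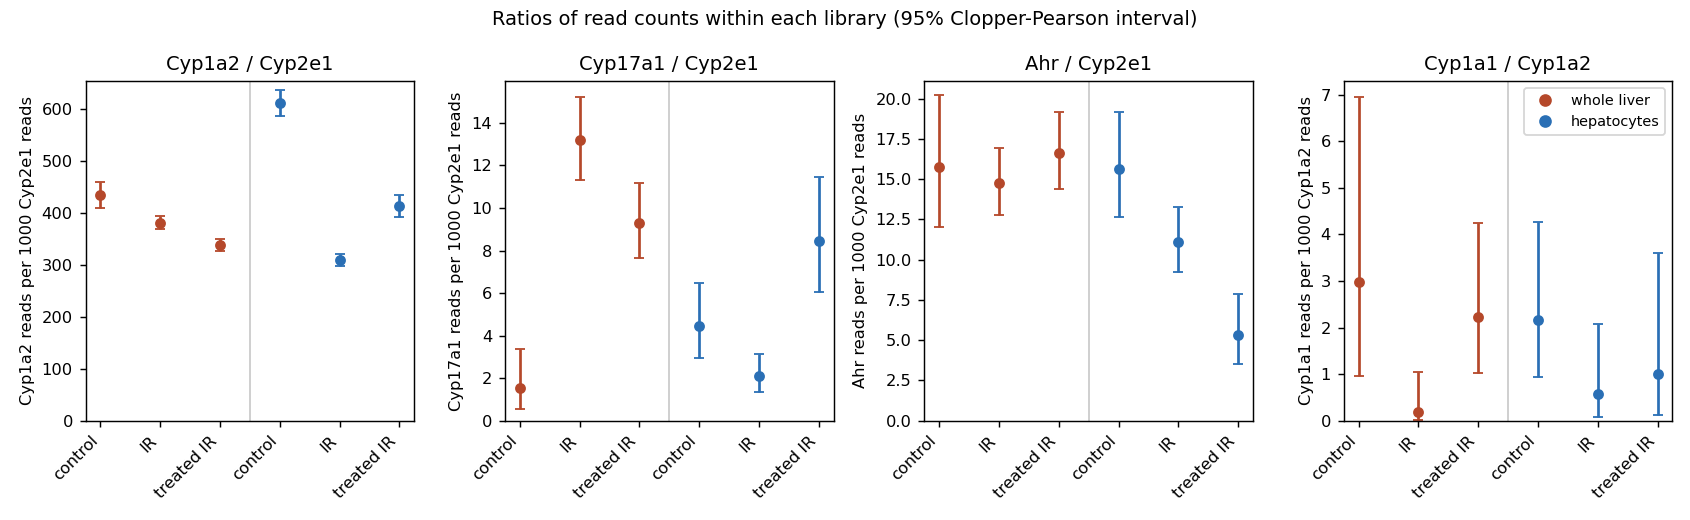
Read counts of 1 gene per 1000 reads of another within each library, an axis that does not depend on scaling between libraries, with 95% Clopper-Pearson intervals and red points for whole liver, blue for hepatocytes. Cyp1a2 per Cyp2e1 is highest in control within each preparation (434 in liver, 611 in hepatocytes), and Cyp17a1 per Cyp2e1 is highest in liver IR at 13.2.

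Cyp2e1, the ethanol-oxidising P450, was the steadiest of the 5 genes. The control, IR and treated IR livers had Cyp2e1 at 1693, 2080 and 1597 CPM, from 3878, 14037 and 11964 reads. The hepatocyte libraries had it at 1883, 2191 and 2258 CPM, from 6068, 11333 and 4864 reads. Its share of liver reads was 0.199%, 0.196% and 0.197% for the 3 conditions, with overlapping 95% Wilson intervals. Its share of hepatocyte reads was 0.176%, 0.212% and 0.179%, and the IR library stood apart (0.209% to 0.216%).

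The highest library exceeded the lowest 1.41-fold for Cyp2e1. Among the 197 genes with at least 1000 reads in every library the median range was 2.07-fold, and 5.08% of them were as narrow as Cyp2e1. By library totals the range of Cyp2e1 was 1.21-fold, the median 1.79-fold and the share as narrow 1.02%. Cyp1a2 had a range of 2.14-fold, near the median of 2.07-fold, and by library totals of 1.64-fold, below the median of 1.79-fold. Ahr, at lower depth, had a range of 2.54-fold, and of 3.44-fold by totals. Among the 6905 genes with at least 10 reads in every library the median was 1.90-fold, and 2.06-fold by totals. Of these genes 80.2% were as narrow as Ahr, and 90.0% by totals. No test was made of these ranges, since they rest on 6 single libraries. Within a preparation no Cyp2e1 ratio reached 2-fold, and IR stood at 1.23 times control in liver (1.19 to 1.27, but 0.983 by library totals) and 1.16 times in hepatocytes (1.13 to 1.20, and 1.21 by totals). Across both preparations its log2 ratio in IR vs control was 0.26 (SE 0.51, edgeR adjusted p = 0.996).

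**Figure D3:**
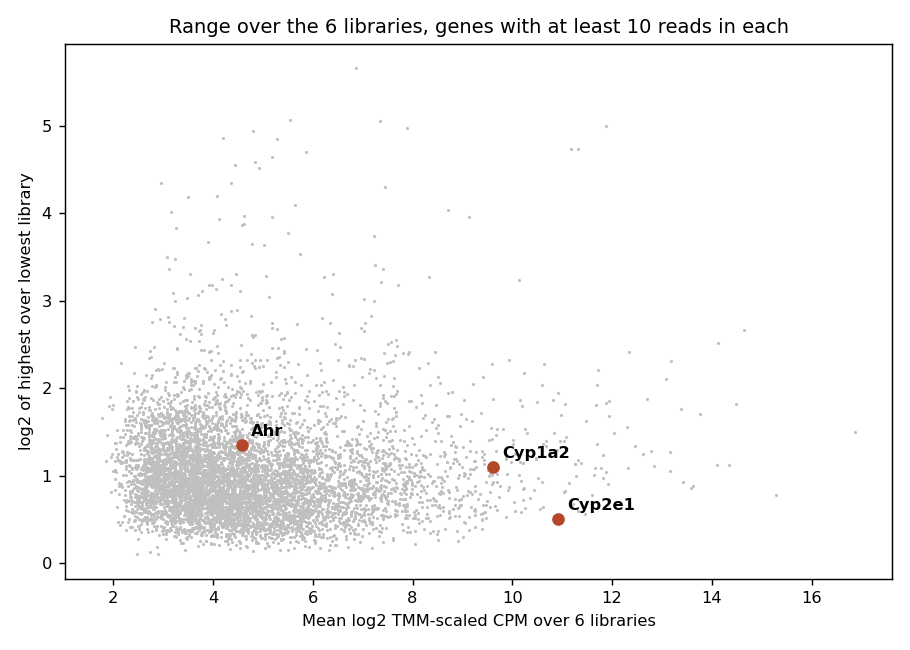
Range over the 6 libraries (log2 of the highest over the lowest TMM-scaled CPM, vertical) against mean log2 CPM (horizontal) for genes with at least 10 reads in every library, each grey point 1 gene. Cyp2e1, at a 1.41-fold range, lies near the lower edge of the abundant genes, while Cyp1a2 and Ahr lie higher at 2.14-fold and 2.54-fold; Cyp1a1 and Cyp17a1 had too few reads in some libraries to be drawn.

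Cyp17a1, the steroid hydroxylase, differed most between libraries among the genes with more than a few reads. Healthy liver held Cyp17a1 at 2.62 CPM from 6 reads, liver after IR at 27.4 CPM from 185 reads, and liver after treated IR at 14.8 CPM from 111 reads. Control hepatocytes held it at 8.38 CPM from 27 reads, IR hepatocytes at 4.64 from 24 reads, and treated IR hepatocytes at 19.0 from 41 reads. Both liver libraries with IR lay above liver control, whereas among hepatocytes the treated library was high and the IR library was the lowest.

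Cyp17a1 in liver was 10.5-fold higher in IR than in control (4.72 to 28.9) and 5.66-fold higher in treated IR than in control (2.52 to 15.7). With library totals alone these ratios were 8.38 and 5.95. Treated IR stood 1.85-fold below IR in liver (1.45 to 2.36). The 6 reads of liver control set the width of the first pair of intervals, and they come from the shallowest library. The liver IR library, which held the highest level, also had the largest share of alignments that were not unique (60.1%), and the part of this in the result was not tested.

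In hepatocytes the order of Cyp17a1 differed. IR stood at a ratio of 0.554 to control (0.306 to 0.997), and at 0.575 (0.317 to 1.03) with library totals alone, an interval that holds 1. Treated IR was 4.10-fold higher than IR (2.42 to 7.10) and 2.27-fold higher than control (1.36 to 3.84). The treated IR to control ratio was 1.93 with library totals alone and then missed the 2-fold rule. Per 1000 Cyp2e1 reads the control, IR and treated IR livers had 1.55, 13.2 and 9.28 Cyp17a1 reads, and the hepatocyte libraries 4.45, 2.12 and 8.43. Of these 6 values liver IR was the highest (11.3 to 15.2) and hepatocyte IR the second lowest, above liver control (1.36 to 3.15 and 0.567 to 3.37).

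Across both preparations the log2 ratio of Cyp17a1 was 1.31 in IR vs control (SE 0.72, edgeR adjusted p = 0.996, higher in 1 of 2 preparations). In treated IR vs control it was 1.47 (SE 0.69, adjusted p = 1, higher in 2 of 2). These values turned on single libraries. Without the hepatocyte IR library, IR vs control gave 2.72 (adjusted p = 0.00011), and without the liver IR library -0.58 (adjusted p = 0.669). Without liver control the value was 0.12 (adjusted p = 1), and without hepatocyte control 2.86 (adjusted p = 0.592). For treated IR vs control the values were 1.65 without hepatocyte IR (adjusted p = 0.0259) and 1.69 without liver IR (adjusted p = 0.0254). They were 0.52 without liver control (adjusted p = 1) and 3.26 without hepatocyte control (adjusted p = 0.109). Without liver treated IR the value was 1.98 (adjusted p = 0.0777), and without hepatocyte treated IR 0.73 (adjusted p = 1). For treated IR vs IR, the value of 0.16 (adjusted p = 0.994) became 2.26 without liver IR (adjusted p = 0.0024) and -1.06 without hepatocyte IR (adjusted p = 1). Each such fit lets 1 library stand for the group that was cut and assumes that it varies like the other groups. It also has fewer residual degrees of freedom than the main fit. Without an IR library, the difference between the 2 preparations in IR leaves the residual, in the contrast of treated IR and control too. The adjusted p-values of these fits are therefore not read as evidence.

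**Figure D4:**
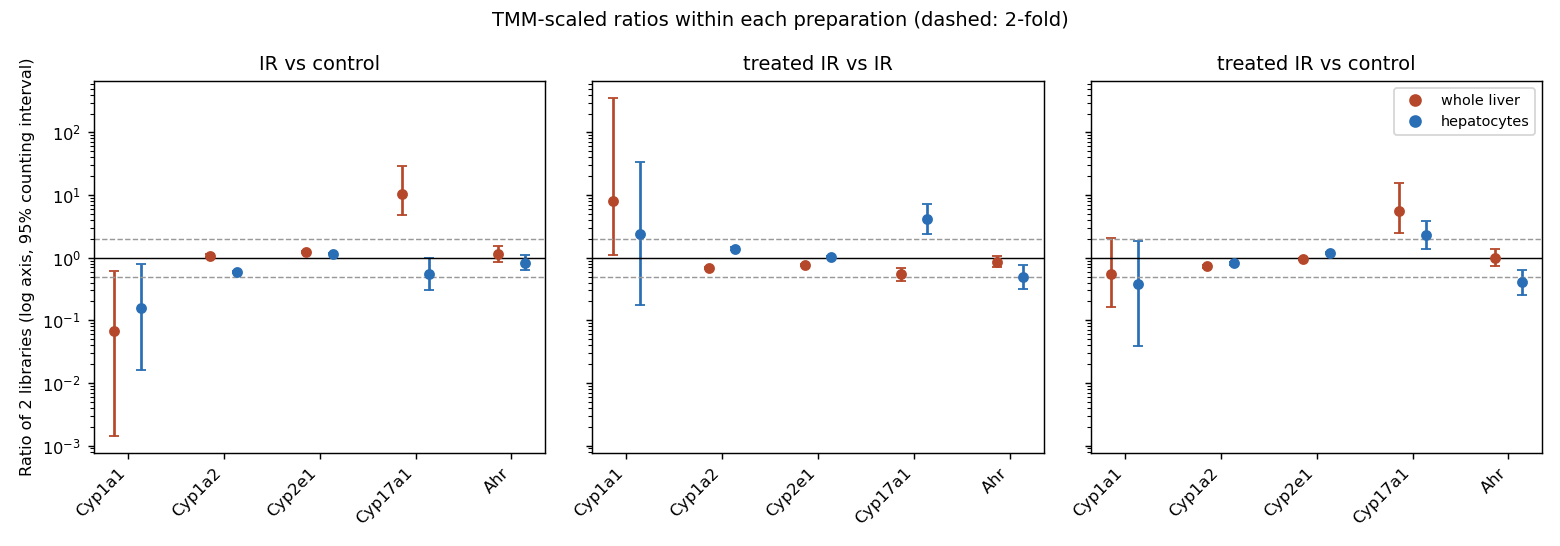
Ratio of 2 libraries within whole liver (red) and within hepatocytes (blue) for the 5 genes, on a log axis, with 95% Clopper-Pearson counting intervals and dashed lines at 2-fold. The IR vs control ratio of Cyp17a1 is 10.5 in liver and 0.554 in hepatocytes, and Cyp2e1 and Cyp1a2 stay between the dashed lines in every comparison.

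The 5 genes were also counted by a rule of size: a gene met it when its libraries differed 2-fold or more and its counting interval did not hold 1. In liver IR vs control 2 of 5 met it, Cyp17a1 higher and Cyp1a1 lower, where 5.98% of all 9932 genes did. In liver treated IR vs IR it was 1 of 5 (Cyp1a1 higher, 2.77% of all genes), and in liver treated IR vs control 1 of 5 (Cyp17a1 higher, 7.20%). In hepatocytes, IR vs control had 1 of 5 (Cyp1a1 lower, 16.5% of all genes). Hepatocyte treated IR vs IR had 2 of 5, Cyp17a1 higher and Ahr lower, where 23.3% of all genes met the rule. Hepatocyte treated IR vs control also had 2 of 5, the same 2 genes in the same directions, where 8.32% did. These comparisons share libraries within a preparation, so the counts are not separate pieces of evidence. The Cyp1a1 calls rest on 1 to 9 reads a library, and those against control on a gene kept by its controls, so nothing is read from them. Leaving out Cyp1a1, the counts for liver IR vs control, liver treated IR vs IR and hepatocyte IR vs control were 1, 0 and 0 of 4. Cyp1a1 missed the filter when some libraries were left out. Without hepatocyte IR or liver treated IR, 1 of 5 remained in liver IR vs control. Without liver IR or liver treated IR, 0 of 5 remained in hepatocyte IR vs control, and without hepatocyte IR, 0 of 5 in liver treated IR vs IR.

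A change shared by liver and hepatocytes was tested over the 6 libraries with edgeR (quasi-likelihood, preparation as a term). For IR vs control, 0 of the 5 genes and 0% of all genes passed an adjusted p of 0.05, and 332 genes had an unadjusted p under 0.05. The counts were 0 adjusted and 119 unadjusted by DESeq2, and 0 and 300 by limma-voom. For treated IR vs IR, 0 of 5 and 0% passed by edgeR (297 unadjusted), DESeq2 called 1 gene that is not among the 5 (175 unadjusted), and limma-voom 0 (359). For treated IR vs control, 0 of 5 and 0% passed by edgeR (230 unadjusted), 0 genes by DESeq2 (101) and 0 by limma-voom (225).

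Hepatocytes and whole liver were compared over the 3 conditions, and their levels overlapped for each of the 5 genes. Cyp2e1 stood at 2111 ± 200 CPM in hepatocytes and 1790 ± 256 in liver, and Cyp1a2 at 919 ± 238 and 689 ± 133 (SD across the 3 conditions, n = 3). Ahr stood at 22.0 ± 8.95 CPM in hepatocytes and 28.0 ± 2.36 in liver, and Cyp17a1 at 10.7 ± 7.47 and 15.0 ± 12.4. Cyp1a1 stood at 1.27 ± 1.09 and 1.18 ± 1.02 CPM.

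With condition as a term, 0 of the 5 genes passed edgeR's quasi-likelihood test for hepatocytes vs liver, where 5.34% of all genes did, and 0 of 5 had an unadjusted p under 0.05. The log2 ratios were 0.40 for Cyp1a2 (SE 0.38, adjusted p = 0.933), 0.24 for Cyp2e1 (SE 0.42, adjusted p = 0.975) and -0.42 for Ahr (SE 0.30, adjusted p = 0.874). With library totals alone that of Cyp2e1 was -0.07 and that of Cyp1a2 was 0.09. DESeq2 and limma-voom called 0 of the 5 genes too.

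Within single conditions the preparations stood apart for Cyp17a1 and Ahr. Cyp17a1 was 3.20-fold higher in hepatocytes than in liver in control (1.29 to 9.48), where 11.1% of all genes met the rule of size. In IR it was 5.91-fold lower in hepatocytes (3.85 to 9.46), where 17.4% met it. In treated IR the ratio was 1.28 (0.875 to 1.85, and 0.822 by library totals). Ahr met the rule only in treated IR among the 3 conditions, at 2.20-fold lower in hepatocytes (1.46 to 3.45), where 19.7% of all genes did. Cyp1a2 was 1.57-fold higher in hepatocytes in control, 1.17-fold lower in IR and 1.73-fold higher in treated IR, all under 2-fold. By library totals these differences of Cyp1a2 were 1.24-fold higher, 1.14-fold lower and 1.11-fold higher.

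For the 3 genes with at least 10 reads in every library, the pattern over the 6 libraries was compared with that of 6904 other genes by Pearson's r of log2 CPM. The closest gene had r = 0.990 for Cyp1a2, 0.983 for Cyp2e1 and 0.990 for Ahr. There were 13, 5 and 51 genes with an r of at least 0.95, or 0.188%, 0.0724% and 0.739%. These genes have no symbol here. Among the 3 genes themselves r was 0.43 for Cyp1a2 and Cyp2e1, -0.19 for Cyp1a2 and Ahr, and -0.51 for Cyp2e1 and Ahr. These values come from 6 libraries that share their scaling and are given as a description. Ahr and its target Cyp1a2 thus had different orders of libraries: treated IR hepatocytes were the lowest for Ahr, and for Cyp1a2 the second highest with TMM and the fourth by library totals.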

How the data were processed

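Each library has 1 deposited file of raw, unscaled counts, with a row for every Ensembl gene ID. The mRNA was selected on beads, prepared with an Ion Total RNA-Seq kit and sequenced on an Ion Torrent Proton, per the labels' protocols and the series' design text. The submitters' processing notes name TopHat2 2.0.13 with HTSeq 0.6.1. The sources used here do not give the genome build, annotation or strand setting, and the counting may have split or dropped reads of overlapping or near-identical genes. Summary lines naming no gene were left out of library sizes. Reads outside annotated genes made up 6.23% to 8.34% of uniquely aligned reads, and ambiguous reads 0.358% to 0.798%.

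Groups came from the sample titles. Low genes were removed by filterByExpr in edgeR, grouped by condition at a minimum count of 10, and libraries were scaled by TMM. Pairs of libraries were compared by scaled ratios with 95% Clopper-Pearson intervals, which cover counting error alone, as there are no molecular identifiers. Log2 ratios of pairs used a prior count of 2. Tests used edgeR's quasi-likelihood test with preparation and condition as terms (2 residual degrees of freedom) and Benjamini-Hochberg adjustment over 9932 genes. The 2 pools of a condition, from different animals, were taken as separate. The residual holds the spread between pools together with any difference in response between the preparations. These cannot be told apart, so p-values do not measure the spread between pools alone. The tools were edgeR 4.0.16, DESeq2 1.42.0 and limma 3.58.1 in R 4.3.3. Scripts were tested on simulated data.

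The genes, lists and tests were chosen with earlier results of these data known. The rule for named genes took the 5 genes, lists of Ahr pathway and other P450 genes and of cell type markers, and the genes most alike in pattern. It names genes of the lists only by symbol, so none was named. The alternatives were other size factors, library totals, other filters, a 4-fold rule, another prior count, DESeq2, limma-voom and leaving out each library.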

Additional observations from a re-analysis of the deposited data

Results flagged for a closer look

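With TMM scaling the ratio of 2 conditions lay, for 3 genes, on opposite sides of equality in whole liver and in hepatocytes, with counting intervals that exclude equality in both. Each side is 1 pair of single libraries, and whether the preparations differ was not tested. How many of all genes lie on opposite sides in this way was not counted, so nothing particular to these 3 genes is read from it. Cyp17a1 in IR vs control had a ratio of 10.5 in liver and 0.554 in hepatocytes, and in treated IR vs IR of 0.540 and 4.10. Cyp1a2 in IR vs control had 1.08 in liver and 0.587 in hepatocytes, and in treated IR vs IR 0.680 and 1.38. Cyp2e1 in treated IR vs control had 0.944 in liver and 1.20 in hepatocytes. Several of these opposite sides depended on scaling. With library totals alone the liver ratio of Cyp1a2 in IR vs control was 0.863, on the same side as in hepatocytes. The hepatocyte ratio of Cyp17a1 in IR vs control was then 0.575 (0.317 to 1.03), and those of Cyp2e1 were 0.992 (0.956 to 1.03) in liver and 1.02 (0.980 to 1.06) in hepatocytes, all with intervals that hold 1. Both treated IR vs IR contrasts kept their sides, at 0.710 and 3.35 for Cyp17a1 and 0.893 and 1.13 for Cyp1a2.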

How the results depend on the processing

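Library totals alone left 1 of 5 genes in hepatocyte treated IR vs control (2 with TMM). They turned 2 fitted log2 ratios of hepatocytes vs liver, Cyp1a1 to -0.16 and Cyp2e1 to -0.071, and put 2 genes in place of 1 with both controls above all 4 libraries with IR. That comparison and its alternatives were chosen after seeing the data. DESeq2 size factors and no filter changed no count of the 5 genes. The prior count enters only the log2 ratios of pairs and no count. A minimum count of 50, which dropped Cyp1a1, left 1 gene in liver IR vs control (2), 0 in liver treated IR vs IR (1) and 0 in hepatocyte IR vs control (1). A 4-fold rule left 1 gene in hepatocyte treated IR vs IR (2), 0 in hepatocyte treated IR vs control (2), and 1 in hepatocytes vs liver over the 3 conditions (3). Leaving out 1 library gave 1 to 2 genes in liver IR vs control, 0 to 1 in liver treated IR vs IR and 0 to 1 in hepatocyte IR vs control. The fitted comparisons of conditions then had 0 to 1 genes each, the 1 being Cyp17a1. Fitted log2 ratios that changed sign when a library was left out ran, in IR vs control, from -0.80 to 0.13 for Cyp1a2, -0.58 to 2.86 for Cyp17a1 and -0.46 to 0.40 for Ahr. In treated IR vs IR they ran from -0.53 to 0.42 for Cyp1a2 and -1.06 to 2.26 for Cyp17a1, in treated IR vs control from -0.11 to 0.23 for Cyp2e1, and in hepatocytes vs liver from -1.06 to 0.78 for Cyp17a1. Others moved without changing sign over the 12 alternatives. In treated IR vs control Cyp17a1 ran from 0.52 to 3.26, Ahr from -1.22 to -0.14 and Cyp1a2 from -0.69 to -0.16. Ahr ran from -1.18 to -0.11 in treated IR vs IR. For hepatocytes vs liver Ahr ran from -0.71, with library totals alone, to -0.09. For Cyp17a1 in IR vs control, adjusted p ran from 0.00011 to 1 over 12 alternatives, in treated IR vs IR from 0.0024 to 1, and in treated IR vs control from 0.0254 to 1. Of fitted log2 ratios under all alternatives, 208 kept their direction and side of the threshold, 12 turned and 4 passed it. The cause was not tested. Depth limits Cyp1a1 most, at 1 to 9 reads a library. No paired analysis was possible because the labels give no replicate numbers and each group is 1 library.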
